A study of Homo sapiens with 24 samples.

Results

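The comparison described here is that of parental MCF-10A cells exposed to 4-hydroxytamoxifen (4-OHT) for 48 h with the same cells exposed for 24 h, each in 3 replicate libraries, so that 6 of the 24 libraries of the series were compared directly. The libraries were taken by their labels alone. MCF-10A is an immortalised, non-tumorigenic human mammary epithelial line with basal features, labelled wild-type, and it was grown in 3 dimensions on growth-factor-reduced Matrigel. 4-OHT, the active metabolite of tamoxifen, was added at 1 µM and all cultures were collected together on day 5, with fresh medium at 72 h, so the groups differ in when 4-OHT was added and not in the age of the culture. The series also holds parental libraries at 0 and 8 h and a matching set from MCF-10A MYC-ER, which carries MYC fused to an oestrogen receptor domain that 4-OHT activates. The parental line lacks that fusion. No vehicle-treated group is part of the labels used here, and the labels do not say whether replicates came from separate experiments, so p-values measure the spread between these libraries.

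MCF-10A cells on a basement membrane gel form hollow spheres called acini. During this process they attach through hemidesmosomes and laminins, leave the cell cycle, and depend on epidermal growth factor signalling for growth. Genes of the cell cycle, of secreted proteases and of the basement membrane are therefore the groups by which such cultures are often described.

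The 6 libraries held between 149204049 and 176299944 counts, and no replicate pair agreed within sampling noise (chi-square per degree of freedom 18 to 64.9). Spearman correlations of log2 CPM (counts scaled to a common total) were 0.9874 to 0.9901 within the 2 groups and 0.9858 to 0.9884 between them. Basal keratins were abundant at both times: KRT5 stood at 10887, 10020.3 and 11546 CPM at 24 h and 9093, 10731 and 11264 CPM at 48 h, and KRT14 at 6029, 5835 and 6347 CPM at 24 h and 5519.7, 6271 and 6692 CPM at 48 h. The leukocyte genes PTPRC, CD3E, CD3D and MS4A1 had 0 counts in all 6 libraries, as had the endothelial genes CDH5, CLDN5 and EMCN and the fibroblast genes COL3A1 and THY1. MYC was at 511, 490.2 and 517 CPM at 24 h and 486, 534 and 556 CPM at 48 h and did not pass the test (log2 fold change 0.05, SE 0.07, adjusted p 0.691). ESR1, the oestrogen receptor alpha gene, was at 0.277, 0.167 and 0.274 CPM at 24 h and 0.159, 0.115 and 0.159 CPM at 48 h and did not pass either (adjusted p 0.368). Levels were summed over the markers with enough reads to be tested. For 3 of 9 leukocyte markers the sum was 23.5 to 25.3 CPM at 24 h and 12.8 to 13.5 CPM at 48 h. It was 86.5 to 92.7 and 104 to 121 CPM for 5 of 9 fibroblast markers, and 2.25 to 2.94 and 3.72 to 4.85 CPM for 4 of 7 endothelial markers. Those sums rest largely on CD68, COL1A1 with DCN, and PECAM1 with KDR, and the part of other cells in the results was not tested.

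Cells exposed for 48 h had lower levels of the secreted matrix proteases MMP1, MMP9 and MMP10, the laminin chains LAMA3 and LAMB3, DNA replication and mitotic genes and genes of the unfolded protein response, among them the chaperones HSPA5 and CALR, than cells exposed for 24 h, while genes such as CDK18, SCNN1B, FGFR3 and KRT15 were higher. Below, a gene that passed the test is said to have risen or fallen at 48 h relative to 24 h. Of 22158 genes tested, 2927 (13.2%) passed an adjusted p of 0.05 in edgeR's quasi-likelihood test, 1426 (6.44%) of them higher and 1501 (6.77%) lower at 48 h. That total was 1474 with the 12 parental libraries alone and 4640 without the parental 0 h libraries. The changes were small: the median size among called genes was 0.381 on the log2 scale, and 259 genes (1.17%) changed at least 2-fold, 175 upward and 84 downward (138 in all when 10 counts were required in every library). The median over all genes tested was 0.0067. For 2824 of the 2927 called genes the 3 values at 24 h and the 3 at 48 h did not overlap, which was so for 29.4% of all genes tested. The balance between directions depended on scaling: 48.7% of the calls were higher with TMM factors and 60.6% with upper-quartile factors, which moved the median of all genes to 0.0441.

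Among called genes of at least 10 CPM in one of the groups, several of those that fell furthest encode secreted or membrane proteins. MMP1, interstitial collagenase (chr11:102789920-102798160, GRCh38), was at 17.2, 17.03 and 17.3 CPM at 24 h and 4.11, 4.86 and 5.04 CPM at 48 h. The groups did not overlap, and the level at 48 h was 3.68-fold lower (log2 fold change -1.88, SE 0.12, adjusted p 8.03e-09). SERPINB2, which encodes plasminogen activator inhibitor 2, went from 11.8, 12.2 and 10.1 CPM to 3.29, 4.45 and 3.38 CPM (log2 fold change -1.62, SE 0.22, adjusted p 3.2e-05). CD68, a lysosomal glycoprotein best known from macrophages, went from 19.4, 19.9 and 20.8 CPM to 7.28, 6.75 and 6.46 CPM (log2 fold change -1.55, SE 0.14, adjusted p 4.89e-07), with no overlap and with the pan-leukocyte gene PTPRC at 0. CD68 shares part of its span with a clone-named gene on each strand, and reads of such overlaps may be split. Several other genes named here also overlap a neighbour, among them MMP1 (WTAPP1), SERPINB2 (SERPINB10), PSMC3IP (MLX), PRODH (DGCR6), KCNAB2 (NPHP4) and TP73 (TP73-AS1). AQP9, a channel for water and glycerol, was at 13.5, 13.5 and 13.2 CPM at 24 h and 5.004, 5.18 and 5.67 CPM at 48 h (log2 fold change -1.35, SE 0.09, adjusted p 8.03e-09). The cysteine protease gene CTSV, also called cathepsin L2, was 2.05-fold lower at 48 h (log2 fold change -1.03, SE 0.10, adjusted p 6.74e-07). F3, tissue factor, the initiator of coagulation, was at 81.2, 81.3 and 86.6 CPM at 24 h and 38.8, 48.1 and 41.7 CPM at 48 h (log2 fold change -0.95, SE 0.10, adjusted p 1.66e-06). PLD5, STEAP4, INSC, PSMC3IP and FAM111B were also among the 12 largest falls, with log2 fold changes of -1.03, -0.97, -0.97, -0.92 and -0.87.

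At the same minimum level, the largest rise was that of CDK18, a cyclin-dependent kinase of the PCTAIRE family (chr1:205504595-205532793, GRCh38). It was at 14.3, 15.1 and 15.5 CPM at 24 h and 35.97, 38.7 and 36.2 CPM at 48 h, and all 48 h libraries lay above all 24 h libraries (log2 fold change 1.302, SE 0.08, adjusted p 6.06e-09). SEC31B, a paralogue of a COPII coat component, rose from 24.1, 25.5 and 21.4 CPM to 55.6, 47.04 and 41.00 CPM (log2 fold change 1.02, SE 0.11, adjusted p 3.43e-06). HAPLN3, a hyaluronan and proteoglycan link protein, rose 2.13-fold and the neuronal adhesion gene NLGN2 1.91-fold. PRODH, the mitochondrial enzyme that begins proline breakdown, went from 5.35, 6.39 and 5.39 CPM to 12.8, 10.7 and 8.52 CPM (log2 fold change 0.91, SE 0.11, adjusted p 1.57e-05). In none of these genes did the libraries of the 2 times overlap. SCNN1B, the beta subunit of the epithelial sodium channel, was at 21.5, 19.8 and 24.3 CPM at 24 h and 35.6, 41.4 and 42.7 CPM at 48 h (log2 fold change 0.87, SE 0.08, adjusted p 5.96e-07). FGFR3, a fibroblast growth factor receptor, rose from 131, 117 and 137 CPM to 209, 227 and 229.5 CPM (log2 fold change 0.79, SE 0.06, adjusted p 2.45e-08), and TP73, a p53 family transcription factor, rose 1.76-fold (log2 fold change 0.81, SE 0.11, adjusted p 5.51e-05). KCNAB2, a potassium channel subunit, rose by 0.77 on the log2 scale. The other 3 of the 12 were antisense transcripts, IGFL2-AS1 (1.27), GABPB1-AS1 (0.79) and SLC9A3-AS1 (0.78). GABPB1-AS1 and SLC9A3-AS1 overlap the genes they are named for, and because the use of strand in counting is not given in the sources used here, their reads cannot be told apart from those of the partner. The 48 h values of GABPB1-AS1 ran from 14.6 to 29.1 CPM, and without 48 h replicate 1 it no longer passed.

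**Figure D1:**
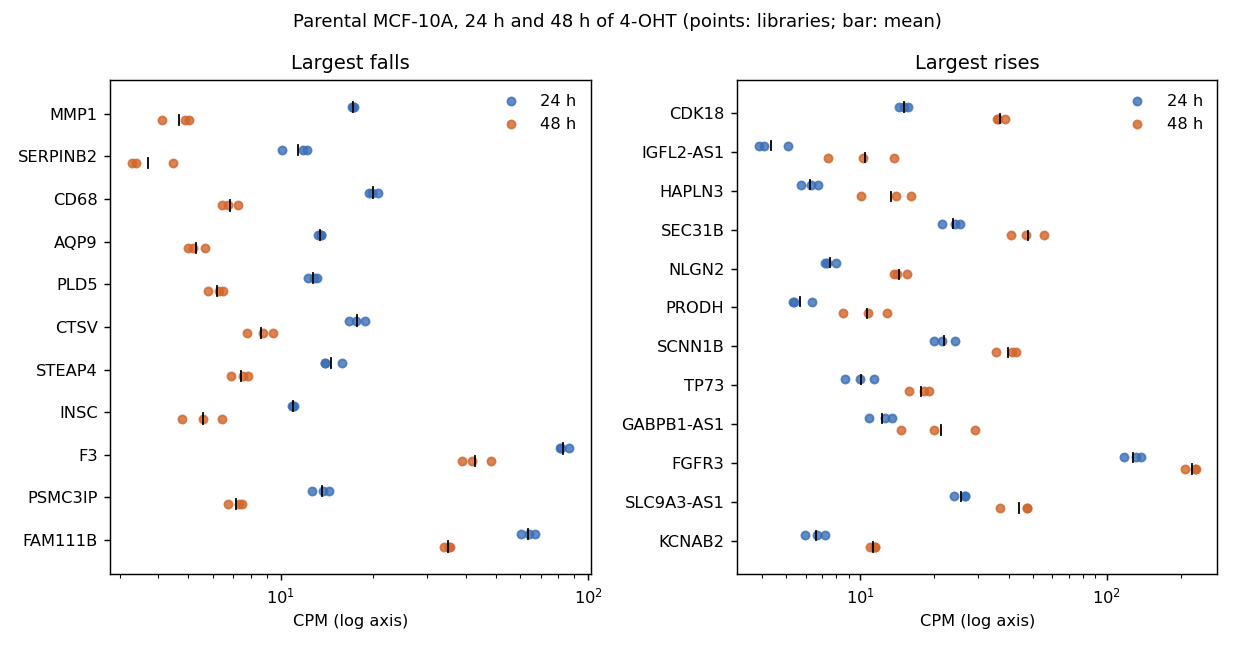
CPM (horizontal, log axis) of the genes named above among the largest falls (left) and rises (right) in the parental line; each point is a library, blue for 24 h and orange for 48 h, and the black bar is the mean of 3. The colours do not overlap for any gene shown, and FGFR3 lies at the high end of the right panel.

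DNA replication genes were lower without exception in the list examined. All 26 S phase genes fell, where 6.77% of all genes did, with a median log2 fold change of -0.50 and a range of -0.82 to -0.35. In each of the 26 the 3 libraries at 48 h lay below the 3 at 24 h, as they did for 15.2% of all genes. In such bulk libraries fewer cells in S phase and less of these RNAs per cell cannot be told apart. The count stayed between 23 and 26 under every alternative tried. CCNE2, cyclin E2, which drives entry into S phase, was at 17.01, 18.04 and 18.2 CPM at 24 h and 9.37, 10.3 and 10.5 CPM at 48 h (log2 fold change -0.82, SE 0.19, adjusted p 0.00541). CDC6, which loads the replicative helicase on origins, fell from 68.2, 65.9 and 64.98 CPM to 41.4, 40.5 and 41.8 CPM (log2 fold change -0.69, SE 0.05, adjusted p 3.2e-08). RRM2, the regulated subunit of ribonucleotide reductase, fell from 213, 206 and 212 CPM to 117, 132 and 143 CPM (log2 fold change -0.69, SE 0.09, adjusted p 2.11e-05), and CDC45, a part of the active helicase, fell from 32.5, 31.1 and 32.00 CPM to 19.7, 19.2 and 21.6 CPM (log2 fold change -0.66, SE 0.07, adjusted p 1.1e-06). The 6 helicase subunits MCM2 to MCM7 fell by 0.35 to 0.59 on the log2 scale, least in MCM3 (-0.35) and most in MCM5 (-0.59). PCNA, the sliding clamp of the replication fork, fell by 0.45 and E2F1, a transcription factor of this gene group, by 0.53.

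Promoters of the replication genes are known to carry sites for E2F factors. The motif TTTNGCGC, searched on both strands in windows from 250 bases before to 50 after each RefSeq start on GRCh38.p14, was present in 10 of the 22 S phase genes with a window (45.5%) and in 1.83% of all 27305 windows. The windows of the 2 genes that hold it and fell furthest are printed 5′ to 3′ up to 30 bases after the start, with the match in capitals, to show where it lies beside the start: CDC6 at chr17:40287629-40287908 (plus strand) and GINS1 at chr20:25407423-25407702 (plus strand).
CDC6: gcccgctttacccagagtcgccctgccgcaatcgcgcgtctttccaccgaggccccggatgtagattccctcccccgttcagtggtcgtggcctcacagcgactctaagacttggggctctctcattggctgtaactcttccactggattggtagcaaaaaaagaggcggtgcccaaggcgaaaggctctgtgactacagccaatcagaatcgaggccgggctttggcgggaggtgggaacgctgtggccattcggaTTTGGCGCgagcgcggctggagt
GINS1: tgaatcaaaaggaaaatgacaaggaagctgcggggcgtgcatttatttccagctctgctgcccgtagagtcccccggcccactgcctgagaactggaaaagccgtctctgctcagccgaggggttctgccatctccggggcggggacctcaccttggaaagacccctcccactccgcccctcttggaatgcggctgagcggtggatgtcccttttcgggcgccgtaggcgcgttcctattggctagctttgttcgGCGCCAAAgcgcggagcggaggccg
GINS1, a subunit of the GINS complex of the helicase, went from 23.7, 24.6 and 23.6 CPM to 16.01, 16.2 and 15.3 CPM (log2 fold change -0.60, SE 0.06, adjusted p 1.15e-06). In both windows the match lies just after the start. A match describes the letters and is not evidence of binding.

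Genes of G2 and mitosis fell as well. Of 30 such genes 25 fell and 5 did not pass, where 6.77% of all genes fell, with a median of -0.41. In 29 every 48 h library lay below every 24 h library, as for 15.2% of all genes. MKI67, the proliferation marker Ki-67, was at 311, 313 and 328 CPM at 24 h and 216, 217 and 211 CPM at 48 h (log2 fold change -0.56, SE 0.07, adjusted p 2.18e-05). HMMR, a spindle-associated hyaluronan receptor, fell from 75.2, 72.3 and 75.7 CPM to 47.6, 52.03 and 54.8 CPM (log2 fold change -0.53, SE 0.10, adjusted p 0.00104). AURKB, the kinase of the chromosomal passenger complex, fell from 34.2, 33.1 and 32.6 CPM to 23.2, 24.1 and 23.2 CPM (log2 fold change -0.50, SE 0.10, adjusted p 0.00102), and its partner BIRC5, survivin, fell from 71.5, 69.02 and 73.01 CPM to 45.5, 51.3 and 56.1 CPM (log2 fold change -0.48, SE 0.10, adjusted p 0.00277). CDK1 and its cyclins CCNB1 and CCNA2 fell by 0.45, 0.34 and 0.38 on the log2 scale. NUSAP1, ASPM, TTK, CENPF and PTTG1 did not pass, with log2 fold changes of -0.38, -0.30, -0.27, -0.23 and -0.22. Of these PTTG1, securin, was the single gene with overlapping libraries (94.03, 129.9 and 95.8 CPM at 24 h and 103, 82.99 and 89.4 CPM at 48 h). With the spread taken from the 6 libraries alone, 29 of the 30 fell, against 6.98% of all genes in that fit. Over all alternatives the number that fell ran from 19 to 29.

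Mitotic promoters are known for CCAAT boxes paired with a cell cycle homology region of the letters TTTGAA. In the same windows CCAAT, on either strand, was present in 21 of 25 G2 and mitosis genes (84%) against 35.7% of all windows, and TTTGAA in 15 of 25 (60%) against 15.4%. CCAAT was also present in 15 of the 22 S phase windows (68.2%). It was present in 17 of the 19 windows of unfolded protein response genes (89.5%), which are described below. MKI67 at chr10:128126394-128126673 (minus strand) and HMMR at chr5:163460382-163460661 (plus strand) hold both, and are the 2 that fell furthest among those that do. Capitals mark every match on either strand, so that a CCAAT on the other strand reads ATTGG.
MKI67: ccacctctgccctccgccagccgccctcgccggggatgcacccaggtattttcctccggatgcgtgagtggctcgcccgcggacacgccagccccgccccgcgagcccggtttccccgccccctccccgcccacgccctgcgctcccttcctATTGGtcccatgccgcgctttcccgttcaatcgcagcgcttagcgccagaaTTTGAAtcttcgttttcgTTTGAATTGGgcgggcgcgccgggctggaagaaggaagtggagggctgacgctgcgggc
HMMR: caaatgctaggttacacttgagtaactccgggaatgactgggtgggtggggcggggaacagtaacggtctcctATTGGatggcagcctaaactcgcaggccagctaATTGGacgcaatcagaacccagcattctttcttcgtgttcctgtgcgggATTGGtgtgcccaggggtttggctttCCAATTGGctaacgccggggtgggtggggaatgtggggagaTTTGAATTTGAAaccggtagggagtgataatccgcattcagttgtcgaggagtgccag
In MKI67 a TTTGAA shares a base with an ATTGG, and in HMMR adjoining matches run together.

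Genes of the unfolded protein response, many of them chaperones of the endoplasmic reticulum, were also called in 1 direction alone. In this response ATF6, IRE1 and PERK sense misfolded protein in that compartment. Of 20 genes 13 fell and 7 did not pass, where 6.77% of all genes fell, with a median of -0.26; with a replicate block over the 6 libraries 8 fell. HSPA5, the chaperone BiP, was at 733, 725 and 729.7 CPM at 24 h and 456, 514 and 544 CPM at 48 h, so that every 48 h library lay below every 24 h library (log2 fold change -0.53, SE 0.06, adjusted p 3.24e-06). CALR, calreticulin, a lectin chaperone, went from 562, 515 and 581 CPM to 363, 428 and 443 CPM (log2 fold change -0.43, SE 0.09, adjusted p 0.00186). MANF, a secreted stress protein, went from 65.02, 75.3 and 63.7 CPM to 47.9, 48.2 and 49.1 CPM (log2 fold change -0.49, SE 0.08, adjusted p 0.000244), and SDF2L1, a cofactor of BiP, from 16.5, 14.99 and 15.4 CPM to 10.2, 10.5 and 11.8 CPM (log2 fold change -0.53, SE 0.12, adjusted p 0.00454). HSP90B1, HYOU1 and PDIA4 fell by 0.29, 0.35 and 0.29. XBP1, whose spliced form is the factor downstream of IRE1, fell by 0.19. The sensors themselves did not pass: ATF6 had a log2 fold change of -0.05 and ERN1, which encodes IRE1, of 0.13. DNAJB9, a target of XBP1, had 0.00 (adjusted p 0.998). Of 22 genes of the ATF4 branch, which answers to PERK and to amino acid shortage, 3 fell and 1 rose, with a median of 0.02. PSAT1, of serine synthesis, rose by 0.27 and MTHFD2, of mitochondrial folate metabolism, fell by 0.21. CHAC1 and VLDLR fell as well, at levels under 2 CPM.

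The endoplasmic reticulum stress element, searched as CCAAT followed after 9 bases by CCACG, was present on either strand in 6 of the 19 windows of these genes (31.6%), those of CALR, CANX, CRELD2, HSP90B1, HSPA5 and XBP1, and in 0.0806% of all windows. CANX, which holds it, did not pass (-0.10, adjusted p 0.534). HSPA5 at chr9:125241314-125241593 (minus strand) has it in the forward direction and CALR at chr19:12938359-12938638 (plus strand) on the other strand. They are shown because they fell furthest among the genes that hold it.
HSPA5: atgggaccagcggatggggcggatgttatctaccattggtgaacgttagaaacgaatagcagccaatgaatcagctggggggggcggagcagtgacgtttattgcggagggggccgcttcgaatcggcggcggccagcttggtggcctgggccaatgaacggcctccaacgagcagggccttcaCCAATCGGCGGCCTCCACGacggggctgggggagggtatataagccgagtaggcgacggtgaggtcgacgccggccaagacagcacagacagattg
CALR: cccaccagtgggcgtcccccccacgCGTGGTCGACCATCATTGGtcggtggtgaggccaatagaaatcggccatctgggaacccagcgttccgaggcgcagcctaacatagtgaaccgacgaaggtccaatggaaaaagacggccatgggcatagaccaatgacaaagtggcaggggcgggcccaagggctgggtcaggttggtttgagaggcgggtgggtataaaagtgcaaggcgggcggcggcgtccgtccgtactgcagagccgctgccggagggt

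**Figure D2:**
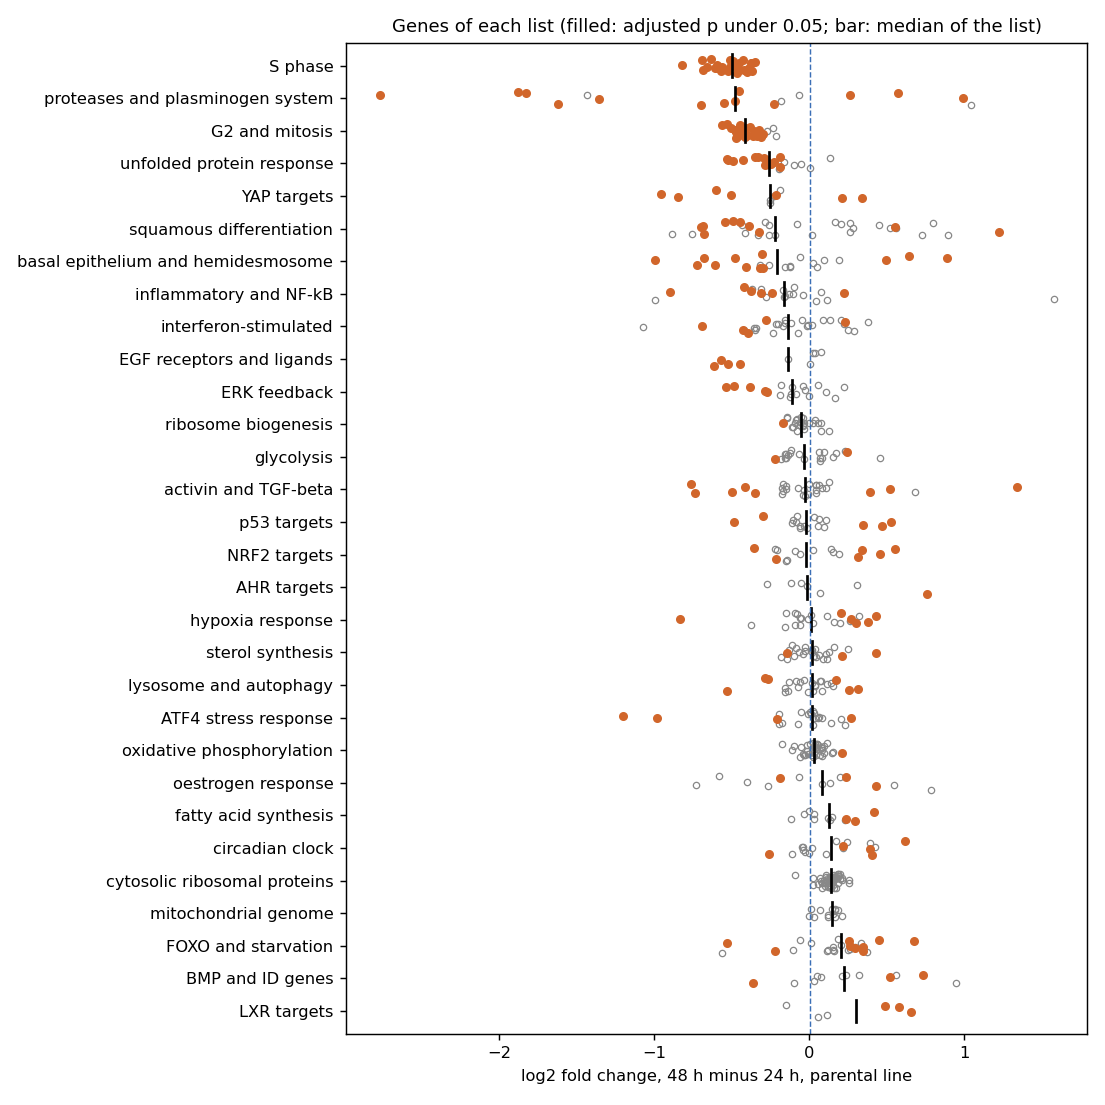
Log2 fold change at 48 h against 24 h (horizontal) of the genes in each of 30 lists (rows, ordered by median); filled points passed an adjusted p of 0.05, open points did not, the black bar is the list median and the dashed line the median of all genes. KRT13, with reads in 48 h replicate 3 alone, and MX2, at 0 at both times, are not drawn. S phase genes lie wholly to the left. Of 53 cytosolic ribosomal protein genes 52 have positive values, with a median of 0.14, and 0 passed.

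Secreted proteases and their regulators changed in both directions. Of 17 genes tested 10 fell and 3 rose, against 6.77% of all genes that fell and 6.44% that rose, with a median of -0.48. With at least 10 counts required in every library 6 fell, but MMP1 and MMP10, with few reads in MYC-ER, were then not tested. MMP9, gelatinase B, was at 6.97, 5.91 and 6.498 CPM at 24 h and 0.861, 1.11 and 0.865 CPM at 48 h, a 6.82-fold lower level at 48 h (log2 fold change -2.77, SE 0.27, adjusted p 9.86e-07). MMP10, stromelysin 2, went from 8.28, 9.64 and 8.84 CPM to 2.18, 2.69 and 2.68 CPM (log2 fold change -1.83, SE 0.18, adjusted p 8.75e-07), close in size to the fall of MMP1. TFPI2, an inhibitor of serine proteases of the matrix, went from 9.27, 8.23 and 10.3 CPM to 3.097, 4.32 and 3.47 CPM (log2 fold change -1.35, SE 0.14, adjusted p 1.66e-06). In these 3 genes every 24 h library was above every 48 h library. PLAU, urokinase, fell from 84.9, 94.4 and 87.4 CPM to 52.8, 57.9 and 53.6 CPM (log2 fold change -0.70, SE 0.07, adjusted p 1.89e-06) and its receptor PLAUR from 18.3, 19.2 and 18.99 CPM to 13.1, 12.6 and 12.8 CPM (log2 fold change -0.55, SE 0.09, adjusted p 0.000396), whereas the tissue-type activator PLAT rose from 93.2, 94.5 and 95.7 CPM to 137, 137 and 148 CPM (log2 fold change 0.57, SE 0.04, adjusted p 2.45e-08). The inhibitors TIMP1 and TIMP3 fell by 0.45 and 0.48, and TIMP2 rose by 0.26. MMP2, gelatinase A, rose from 1.87, 1.78 and 2.09 CPM to 3.42, 3.76 and 4.24 CPM, and the membrane protease MMP14 did not pass (-0.07, adjusted p 0.568). The matrix metalloproteinases of the list moved in both directions, with MMP1, MMP9 and MMP10 lower and MMP2 higher.

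Inducible protease promoters are known for sites of AP-1, the FOS and JUN dimer. TGANTCA was present on either strand in 6 of the 10 windows of the list (60%) and in 7.76% of all windows. MMP10 at chr11:102780599-102780878 (minus strand) and SERPINB2 at chr18:63887455-63887734 (plus strand) are shown as the 2 that fell furthest among those with a match, which is in capitals.
MMP10: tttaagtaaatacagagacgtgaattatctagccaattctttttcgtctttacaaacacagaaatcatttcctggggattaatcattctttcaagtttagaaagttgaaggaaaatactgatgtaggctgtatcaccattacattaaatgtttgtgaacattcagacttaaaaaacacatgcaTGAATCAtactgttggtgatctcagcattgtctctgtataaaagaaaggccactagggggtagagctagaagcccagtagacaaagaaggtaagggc
SERPINB2: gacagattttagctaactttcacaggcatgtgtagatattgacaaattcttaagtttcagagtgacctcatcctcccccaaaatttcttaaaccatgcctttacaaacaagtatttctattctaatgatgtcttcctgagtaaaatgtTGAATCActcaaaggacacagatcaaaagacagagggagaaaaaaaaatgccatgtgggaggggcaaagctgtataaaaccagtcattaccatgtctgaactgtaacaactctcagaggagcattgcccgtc
FOSL1, the FOS family member FRA1, fell from 59.1, 62.5 and 60.01 CPM to 45.5, 41.00 and 43.3 CPM (log2 fold change -0.48, SE 0.08, adjusted p 0.000189).

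LAMA3 and LAMB3, chains of a laminin that epithelial cells bind through hemidesmosomes, both fell. LAMA3, the alpha 3 chain, went from 1531, 1463 and 1627 CPM to 857, 949 and 986 CPM (log2 fold change -0.73, SE 0.07, adjusted p 3.38e-07), and LAMB3, the beta 3 chain, from 1678, 1588 and 1735 CPM to 960.4, 1083 and 1076 CPM (log2 fold change -0.68, SE 0.08, adjusted p 5.96e-06). No 48 h library reached a 24 h level in either gene. Over 22 genes of basal epithelium and hemidesmosomes 9 fell and 3 rose, against 6.77% and 6.44% of all genes, with a median of -0.21, and 5 fell when only the 12 parental libraries were fitted. FN1, fibronectin, fell by 0.61, KRT17 by 0.48, the plakin DST by 0.41 and the hemidesmosome collagen COL17A1 by 0.32. The laminin receptor subunits ITGA6 and ITGB4 did not pass (-0.16 and 0.05), nor did KRT5, KRT14 or TP63, the master factor of basal epithelium (-0.06, 0.02 and 0.19). In the other direction, KRT15, a keratin of basal progenitor cells, rose from 205, 217 and 227 CPM to 329, 349 and 337 CPM (log2 fold change 0.65, SE 0.10, adjusted p 9.64e-05), and COL7A1, the anchoring fibril collagen, rose from 394, 377 and 386 CPM to 574, 582 and 473 CPM (log2 fold change 0.49, SE 0.09, adjusted p 0.000601). NID1 rose from a level under 1 CPM with overlapping libraries. Of 9 luminal markers tested 1 passed, GATA3 (0.24, a call lost under some alternatives), and of 8 myoepithelial markers 1, TAGLN, which fell from 4.22, 3.29 and 4.38 CPM to 1.67, 1.47 and 1.36 CPM (log2 fold change -1.40, SE 0.20, adjusted p 7.69e-05). Among the markers of other cell types, COL1A1 and DCN, matrix genes of fibroblasts, rose by 0.34 and 0.44, CD14 by 0.55 and PECAM1 by 1.21 at 0.78 to 2.32 CPM.

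Ligands of the epidermal growth factor receptor family were among the genes that fell. Of 9 genes of ligands and receptors tested 4 fell, all of them ligands, where 6.77% of all genes fell. AREG, amphiregulin, was at 107, 119.6 and 109 CPM at 24 h and 68.8, 76.99 and 80.4 CPM at 48 h (log2 fold change -0.57, SE 0.08, adjusted p 9.27e-05). TGFA fell from 45.8, 43.5 and 47.6 CPM to 29.5, 33.4 and 32.3 CPM (log2 fold change -0.53, SE 0.06, adjusted p 5.08e-06), HBEGF fell from 33.6, 35.02 and 29.4 CPM to 23.9, 23.8 and 24.2 CPM (log2 fold change -0.45, SE 0.10, adjusted p 0.00352) and NRG1 fell by 0.61 at 1.82 to 3.30 CPM. EGFR itself had a log2 fold change of 0.02 (adjusted p 0.936), and EREG, EPGN, BTC and ERBB2 did not pass either. Among 18 genes that report or restrain ERK signalling 5 fell, against the same 6.77%, and 13 did not pass, with a median of -0.11. Those 5 were DUSP5, an ERK phosphatase (-0.54), FOSL1 (-0.48), IER3 (-0.39), PHLDA1 (-0.28) and EPHA2 (-0.27). Of 11 YAP targets 5 fell and 2 rose, against 6.77% and 6.44% of all genes, with a median of -0.25. Besides F3, AMOTL2, itself a regulator of YAP, fell from 37.9, 33.4 and 39.9 CPM to 22.3, 25.3 and 25.8 CPM (log2 fold change -0.60, SE 0.07, adjusted p 9.01e-06), and CCN1, a matricellular protein, from 31.1, 30.6 and 27.6 CPM to 20.98, 20.6 and 21.3 CPM (log2 fold change -0.50, SE 0.08, adjusted p 0.000141). AXL, a receptor tyrosine kinase, rose by 0.34 with overlapping libraries.

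Of 29 activin and TGF-beta genes 5 fell and 3 rose, where 6.77% of all genes fell and 6.44% rose, with a median of -0.03. INHBA, the subunit of activin A, fell from 32.2, 29.9 and 30.4 CPM to 18.9, 19.4 and 16.1 CPM (log2 fold change -0.77, SE 0.16, adjusted p 0.0019). THBS1, thrombospondin 1, fell from 266, 268 and 266 CPM to 175, 189 and 203 CPM (log2 fold change -0.50, SE 0.10, adjusted p 0.00162). The co-receptor TGFBR3 rose from 22.9, 21.5 and 23.3 CPM to 31.5, 30.7 and 34.8 CPM (log2 fold change 0.52, SE 0.13, adjusted p 0.0124). In the 12 BMP and ID genes, ID2, an inhibitor of basic helix-loop-helix factors, rose from 21.8, 20.2 and 20.9 CPM to 35.1, 34.2 and 35.2 CPM (log2 fold change 0.73, SE 0.07, adjusted p 4.59e-07), SMAD6, an inhibitor of BMP signalling, rose by 0.52, and BMP2 fell by 0.37.

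Keratins and alarmins of the stressed epidermis were among the genes that fell, and KRT10 rose. In the squamous list of 33 genes 8 fell, where 6.77% of all genes did, and 2 rose, a share near the 6.44% of all genes, with a median of -0.22 that was 0.02 without 24 h replicate 2. KRT6B fell from 481, 398 and 495 CPM to 253, 305 and 299 CPM (log2 fold change -0.68, SE 0.09, adjusted p 2.72e-05), and KRT6A and KRT16 fell by 0.45 and 0.49. These keratins have near-identical copies, among which reads can be split. The alarmin subunits S100A8 and S100A9 fell by 0.70 and 0.54, and PI3, the elastase inhibitor elafin, fell from 89.9, 127 and 94.4 CPM to 69.7, 64.5 and 60.1 CPM (log2 fold change -0.68, SE 0.15, adjusted p 0.00302). KRT10, the keratin of suprabasal cells, rose from 134, 136 and 133 CPM to 219, 183 and 188 CPM (log2 fold change 0.55, SE 0.10, adjusted p 0.000471). IVL, involucrin, at 11.7, 13.9 and 18.5 CPM at 24 h and 6.17, 11.1 and 8.82 CPM at 48 h, did not pass (-0.76, adjusted p 0.0691). Of 21 inflammatory and NF-kB genes 5 fell and 1 rose, with IL1A, interleukin 1 alpha, falling from 70.7, 78.2 and 62.8 CPM to 53.97, 50.9 and 53.4 CPM (log2 fold change -0.42, SE 0.07, adjusted p 0.000395) and NFKBIA, the inhibitor of NF-kB, rising by 0.22. Of 30 interferon-stimulated genes 4 fell and 1 rose.

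Lists of starvation, lipid and clock genes had more rises than falls, where 6.44% of all genes rose and 6.77% fell. Of 25 targets of FOXO factors and of starvation 7 rose and 2 fell, against 6.44% of all genes that rose, with a median of 0.20. That count was 2 with the 12 parental libraries alone, 14 without the parental 0 h libraries, and 4 without 24 h replicate 2. BCL6, a transcriptional repressor, rose from 17.5, 16.1 and 17.4 CPM to 32.5, 24.7 and 24.1 CPM (log2 fold change 0.68, SE 0.11, adjusted p 0.000236), and TRIB2, a pseudokinase, rose from 15.6, 14.04 and 15.4 CPM to 20.4, 20.3 and 20.8 CPM (log2 fold change 0.45, SE 0.07, adjusted p 0.00028). PDK4, which restrains pyruvate dehydrogenase, rose by 0.35, a call also lost under some alternatives. TXNIP and ARRDC4, both induced by glucose, fell by 0.22 and 0.53. Of 6 targets of the sterol receptor LXR 3 rose, a count that was the same under every alternative: the sterol transporter ABCG1 from 13.3, 12.2 and 14.1 CPM to 20.2, 21.6 and 20.8 CPM (log2 fold change 0.66, SE 0.08, adjusted p 9.01e-06), MYLIP by 0.58 and NR1H3, which encodes LXR alpha, by 0.49. ABCA1, the best-known target, stood at 0.10 to 0.24 CPM and did not pass. SREBF1, a factor of fatty acid synthesis and an LXR target, rose from 171, 152 and 169.5 CPM to 217, 229 and 214 CPM (log2 fold change 0.42, SE 0.06, adjusted p 7.11e-05), and with ACSS2 and ACACA made up 3 of 12 fatty acid genes that rose. Sterol synthesis, by contrast, had 2 of 25 genes higher (TM7SF2 and LSS) and 1 lower (IDI1, -0.14), near the shares of all genes, with a median of 0.02. Each of these calls was lost under 1 or more alternatives, and the number higher ran from 0 to 4. Of 18 clock genes 4 rose and 1 fell: NFIL3 (0.41), DBP (0.61), BHLHE41 (0.39) and PER1 (0.22) rose, and BMAL1 fell by 0.26. Over all alternatives the number that rose ran from 2 to 7, and the call of PER1 was lost under some.

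In the remaining lists most genes did not pass, where 6.44% of all genes rose and 6.77% fell. Several of the counts of 5 or fewer given here and above moved by more than 1.5 times in either direction under some alternatives. These include the loss of single libraries. Ribosome biogenesis, which MYC is known to drive, had 1 of 25 genes lower (NOP58, -0.17) and a median of -0.05. Of 53 cytosolic ribosomal protein genes 0 passed in edgeR, 14 had an unadjusted p under 0.05 and DESeq2 called 2, all with positive values. Of the 53 genes 52 had positive values, with a median of 0.14. In 21 every 48 h library lay above every 24 h library, as for 14.2% of all genes. The number called higher was 26 without the parental 0 h libraries, 14 with GC and length trends removed and 10 with scaling by library size alone. Of the 13 genes of the mitochondrial genome 0 passed in edgeR, 0 had an unadjusted p under 0.05 and DESeq2 called 0, and mitochondrial transcripts took 6.25% ± 0.78 (SD, n = 3) of counts at 24 h and 7.10% ± 0.62 at 48 h. Oxidative phosphorylation had 1 of 40 genes higher and glycolysis 1 of 21 in each direction, below the shares of all genes. Of 23 hypoxia genes 5 rose, where 6.44% of all genes did, and 1 fell, with a median of 0.01. That fall was of ANGPTL4, an inhibitor of lipoprotein lipase, from 94.8, 90.4 and 107 CPM to 44.3, 62.7 and 56.9 CPM (log2 fold change -0.84, SE 0.18, adjusted p 0.0027). EGLN3, a hypoxia-induced prolyl hydroxylase, was at 14.5, 14.7 and 28.8 CPM at 24 h and 14.6, 29.1 and 25.9 CPM at 48 h and did not pass, and the groups overlapped. p53 targets had 3 of 18 higher and 2 lower, with CDKN1A, the inhibitor p21, falling from 252, 251 and 259 CPM to 210.0, 202 and 208 CPM (log2 fold change -0.30, SE 0.06, adjusted p 0.000907). NRF2 targets had 4 of 16 higher, against the same 6.44%, and 2 lower, with ABCC2, an exporter of conjugated compounds, rising from 77.03, 83.5 and 72.2 CPM to 130.4, 107 and 104 CPM (log2 fold change 0.55, SE 0.10, adjusted p 0.000915). Lysosome and autophagy genes had 3 of 25 in each direction, with CTSB, cathepsin B, falling by 0.29 and GPNMB from 28.96, 30.1 and 31.3 CPM to 23.9, 19.6 and 19.01 CPM (log2 fold change -0.53, SE 0.10, adjusted p 0.00132). SAMD11 rose from 4.74, 4.36 and 4.11 CPM to 9.598, 8.82 and 7.998 CPM (log2 fold change 1.00, SE 0.13, adjusted p 3.27e-05). DEPP1, a starvation-induced gene at 17.4 ± 2.85 CPM (SD, n = 3) at 24 h and 11.7 ± 2.62 at 48 h, did not pass (-0.56, adjusted p 0.115), but did with the spread of the 6 libraries under a GC correction (adjusted p 0.0444) or a replicate block (adjusted p 0.035). Of 7 AHR targets 1 passed, the aldehyde dehydrogenase gene ALDH3A1, which rose from 11.5, 11.2 and 12.5 CPM to 19.7, 20.1 and 19.5 CPM (log2 fold change 0.76, SE 0.10, adjusted p 2.31e-05).

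The tamoxifen metabolite acts on the oestrogen receptor, whose alpha gene was at the low level given above. Of 13 oestrogen response genes GREB1 rose by 0.43 at 2.53 to 4.09 CPM, GATA3 rose by 0.24 and XBP1 fell by 0.19. The classical targets TFF1 and PGR had 0 counts in the 6 libraries.

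For the main groups the parental libraries at 0 and 8 h give the levels at the shorter exposures. Comparisons with those times share libraries with the one described here, so levels are given side by side without a test. In time order, LAMA3 averaged 679 ± 40.1, 929 ± 47.4, 1540.1 ± 82.5 and 931 ± 66.5 CPM (SD, n = 3) in the libraries of 0, 8, 24 and 48 h. MMP9 averaged 1.06 ± 0.176, 3.89 ± 0.961, 6.46 ± 0.528 and 0.946 ± 0.145 CPM at the same times. Both were highest at 24 h, and at 48 h MMP9 lay within the SD of its 0 h level. CDK18 averaged 25.5 ± 3.19, 18.8 ± 1.29, 14.99 ± 0.616 and 36.97 ± 1.52 CPM, lowest at 24 h. The mean log2 CPM of the 26 S phase genes was 5.55 ± 0.02, 5.77 ± 0.02, 5.80 ± 0.02 and 5.28 ± 0.09 (SD, n = 3) in the same order, so that 48 h was the lowest of the 4. For the unfolded protein response genes it was 6.83 ± 0.02, 7.08 ± 0.04, 6.97 ± 0.02 and 6.72 ± 0.07, again lowest at 48 h. The protease list stood at 3.28 ± 0.06, 3.96 ± 0.12, 3.93 ± 0.04 and 3.31 ± 0.04, with the 0 and 48 h values within their SDs. KRT10 was at 539.8 ± 20.9 CPM at 0 h and 197 ± 19.3 at 48 h, and INHBA at 4.93 ± 1.23 and 18.1 ± 1.75, so that at 48 h both lay between their 24 h and 0 h levels.

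**Figure D3:**
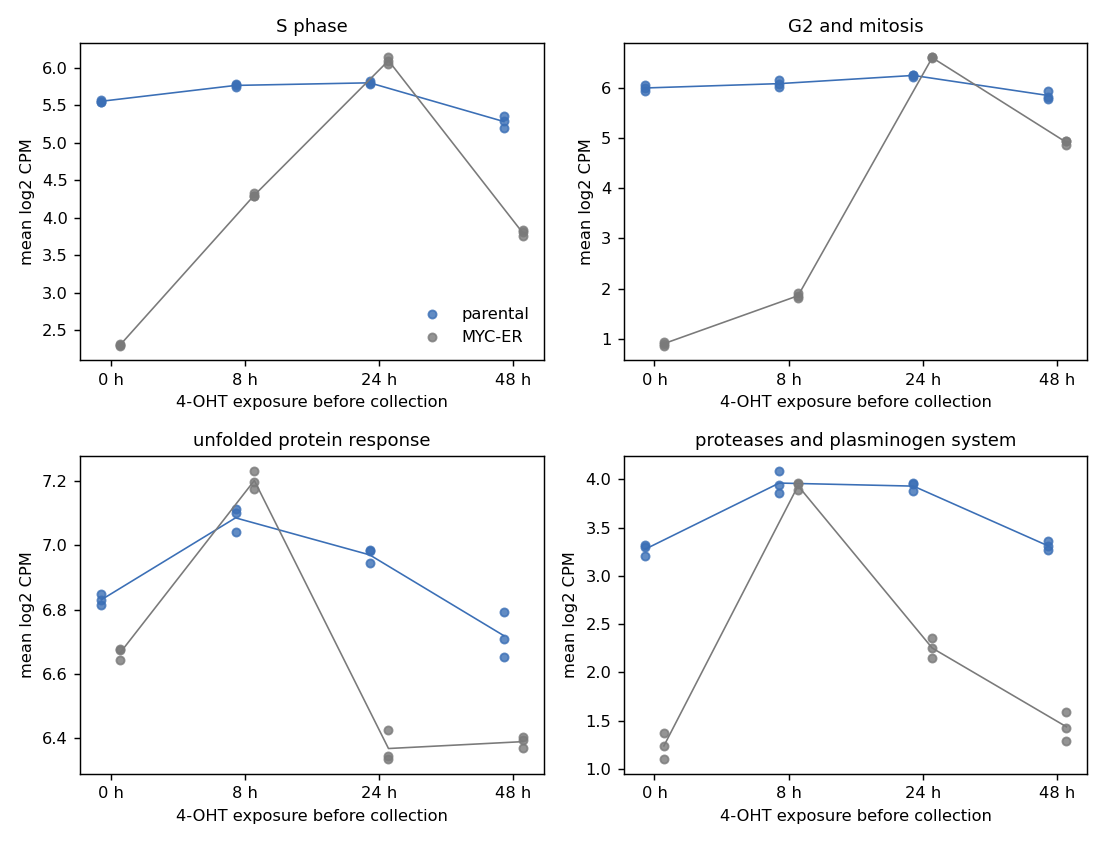
Mean log2 CPM over the genes of 4 lists (vertical) after 0, 8, 24 and 48 h of 4-OHT (horizontal, time points evenly spaced) in parental (blue) and MYC-ER (grey) cells; each point is a library and lines join the means of 3. In the parental line S phase genes fall from 5.80 at 24 h to 5.28 at 48 h, with the libraries of the 2 times apart in all 4 panels.

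The MYC-ER line gives the same interval in cells where 4-OHT also activates MYC, and the 2 comparisons share no library. There 11908 genes passed (53.7%), with a median size of 0.71 on the log2 scale among called genes. Of the 2927 parental calls 83.4% were also called in MYC-ER, and of the MYC-ER calls 20.5% in the parental line. Among the 2441 genes called in both, 84.1% had the same sign, 1063 higher and 991 lower. Spearman's rho between the changes across the 22158 genes was 0.335, given as a description since genes are not independent. The interaction, which subtracts the parental log2 change from that of MYC-ER, passed for 8275 genes (37.3%), 4027 (18.2%) above and 4248 (19.2%) below.

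All 26 S phase genes fell in both lines, and further in MYC-ER: the median was -2.24 there, where 25.5% of all genes fell, and the interaction was below 0 with a passing test for all 26. CDC6 had an interaction of -2.00 (SE 0.07, adjusted p 2.13e-14) and MKI67 of -1.36 (SE 0.10, adjusted p 1.03e-09). For G2 and mitosis the MYC-ER median was -1.63, and 29 of 30 interactions passed below 0. Of the 20 unfolded protein response genes 10 fell and 6 rose in MYC-ER, with a median of -0.12. Among all genes 25.5% fell and 28.2% rose there. These genes differed the other way in part, with 8 of 20 interactions above 0 and 4 below, against 18.2% and 19.2% of all genes. HSPA5 had a log2 fold change of 0.10 in MYC-ER and an interaction of 0.63 (adjusted p 2.35e-06). The laminin chains LAMA3 and LAMB3 had -0.01 and 0.12 in MYC-ER, with interactions of 0.71 (adjusted p 1.84e-06) and 0.80 (adjusted p 4.62e-06). PLAU fell in parental cells and rose by 2.19 in MYC-ER (interaction 2.89, adjusted p 2.13e-14), and FN1 likewise rose there by 1.06 (interaction 1.67, adjusted p 8.25e-08). MMP10 fell in MYC-ER from 1.68 ± 0.106 to 0.00782 ± 0.00677 CPM and TFPI2 from 3.37 ± 0.468 to 0.0443 ± 0.0137 CPM (SD, n = 3), the later levels resting on few reads. ID2 rose in parental cells and had an interaction of -1.34 (adjusted p 3.18e-10). FGFR3, SCNN1B and TP73 rose in both lines, with interactions of -0.08, -0.07 and 0.04 that did not pass (adjusted p 0.471, 0.692 and 0.893). Hypoxia, glycolysis and ribosome biogenesis genes fell in MYC-ER in 21 of 23, 18 of 21 and 24 of 25, and 19, 18 and 24 of their interactions passed below 0. All 21 inflammatory genes rose in MYC-ER, where 28.2% of all genes did, by a median of 2.06, and 19 interactions passed above 0.

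**Figure D4:**
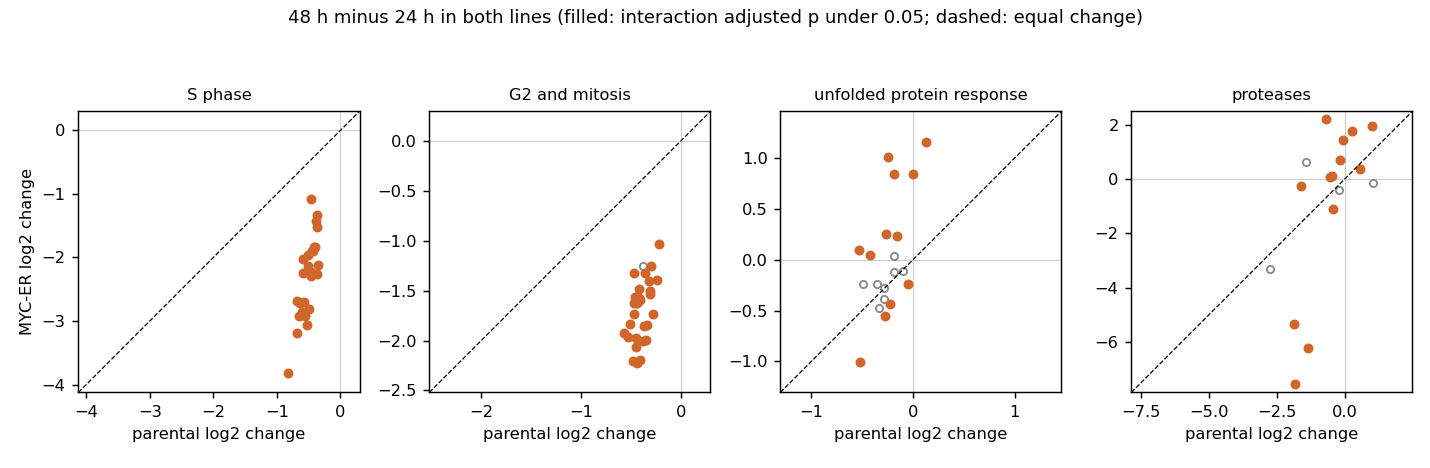
Log2 fold change at 48 h against 24 h in MYC-ER (vertical) and parental cells (horizontal) for the genes of 4 lists; filled points had an interaction with an adjusted p under 0.05, and the dashed line marks equal change. All S phase points are filled and lie under the line, while the unfolded protein response and protease points lie on both sides.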

How the data were processed

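RNA-seq counts per gene were compared between parental libraries, grouped by their titles. Per the submitters' processing notes, Trimmomatic 0.39, STAR and StringTie 2.1.3b were used with build GRCh38; their order and the annotation are not given in the sources used here. The deposited counts are whole numbers and not normalized. If StringTie's script made them, they are estimates from coverage rounded to whole numbers. Per the labels, libraries were poly(A)-selected and stranded, with 150-base paired reads and 3 libraries per lane.

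Of 60668 rows 60340 matched a symbol. The filterByExpr rule kept 22158 genes. The main test was that of edgeR 4.0.16 in R 4.3.3 with TMM factors, on all 24 libraries with 1 mean per group (common biological coefficient of variation 0.151), so that groups shared an estimate of spread. Contrasts used the two-sided quasi-likelihood F test with Benjamini-Hochberg adjustment over all genes at 0.05. CPM are per TMM-adjusted library total; a prior count of 2 was added before log2. In simulated counts with 50 genes changed per size (21719 genes tested), the fit recovered 44% of 1.3-fold, 62% of 2-fold and 81.6% of 3-fold changes, with 6 false calls. Only 200 genes were changed there, against 2927 called in the data, so these shares may not hold for the comparison itself. Across 9784 genes the log2 change had a Spearman rho of 0.027 with GC content and 0.0651 with transcript length (GENCODE 29).

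Named genes were the 12 largest rises and falls among called genes of at least 10 CPM with libraries that do not overlap, up to 4 called members of each of 35 lists and members needed to describe a list, the 5 largest interactions of each sign, and 10 genes named in an earlier account. Some genes that this rule names are not reported here. The members and lists were chosen with earlier results of these data known. The motifs TTTNGCGC and the endoplasmic reticulum stress element were added after the data were seen. Promoter windows are RefSeq's, from GRCh38.p14. Alternatives were other scalings, filters, libraries, a replicate block, GC and length corrections, DESeq2 1.42.0 and leaving out each library.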

Additional observations from a re-analysis of the deposited data

Results flagged for a closer look

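In 10 named genes the change from 24 to 48 h differed most between the lines, by the test of the interaction itself (edgeR, adjusted over all genes). ELF3, an epithelial transcription factor, had a log2 interaction of 5.41 (SE 0.35, adjusted p 1.04e-10): it stood at 0.272 ± 0.0444 and 0.234 ± 0.0851 CPM (SD, n = 3) in parental cells at 24 and 48 h, and at 0.609 ± 0.178 and 22.3 ± 1.83 CPM in MYC-ER. ACSS1, a mitochondrial acetyl-CoA synthetase, had 5.00, the chemokine CXCL2 4.67, TNFAIP2 4.55 and GFPT2, of hexosamine synthesis, 4.53. In each of these 5 the parental change did not pass and the MYC-ER change was a rise. ELF3 overlaps an antisense gene, ELF3-AS1.

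Among the negative values, MMP1 had -3.48 (SE 0.27, adjusted p 1.07e-09) and CCNE2 -3.00 (adjusted p 2.03e-08), and both fell in both lines. PPFIA4 had -3.37, the ETS factor ETV4 -3.21 and the transcription factor MYB -2.97, where the parental change did not pass. MYB was at 2.93 ± 0.0728 and 2.21 ± 0.124 CPM in parental cells and at 12.05 ± 0.743 and 1.16 ± 0.0836 CPM in MYC-ER. Larger values, such as that of MMP10, belong to genes under 10 CPM in all 4 groups, which were not eligible here.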

How the results depend on the processing

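The count of 2927 called genes was 1474 with the 12 parental libraries alone, 4640 without the parental 0 h libraries, 4399 with GC and length trends removed, and between 2008 and 2903 when each of the 6 libraries was left out in turn. The 259 changes of at least 2-fold became 138 when 10 counts were required in every library. With that filter 6 proteases were called lower. It covers all 24 libraries, so genes with few reads in MYC-ER, such as MMP1 and MMP10, were not tested under it. The 12 parental libraries alone left 5 genes of the basal list lower. No named gene that passed reversed under any alternative run. The balance of calls did reverse: 1426 higher and 1501 lower became 1668 and 1267 with library size alone and 1779 and 1159 with upper-quartile factors, and more genes were higher than lower without 24 h replicate 3 or 48 h replicate 1 (1046 and 1023, 1052 and 956). Of the 109 named genes that passed, 82 did so under every alternative that tested them, which for MMP1 leaves out the filter of 10 counts. The others were ACACA, AKR1C2, AXL, BIRC3, BNIP3L, GAA, GABPB1-AS1, GATA3, IDI1, IER3, LOX, LSS, MTHFD2, NFKB2, NOP58, OAS1, PDK4, PER1, PGAM1, RIGI, SAA1, SDHD, TGFBR3, TKT, TM7SF2, TP53INP1 and XBP1. The median of the squamous list changed from -0.22 to 0.02 without 24 h replicate 2, and several list medians within 0.1 of 0 also changed sign. Leaving out single libraries moved several list counts by over 1.5 times: hypoxia genes higher from 5 to 2 without 24 h replicate 1, 24 h replicate 2 or 48 h replicate 2, and p53 targets higher from 3 to 1 without 24 h replicate 1, 2 or 3 or 48 h replicate 1. Same-numbered replicates showed no common deviation (correlations of -0.155, -0.245 and 0.168, with 0 of 3 closest to its own number). With 3 libraries per group this cannot exclude that the numbers pair the samples. With the number as a replicate block, 2697 genes passed over all libraries, and 1714 over the 6 libraries, with 150 of at least 2-fold and 8 unfolded protein response genes lower. The causes of these differences were not tested. Each group has 3 libraries, so smaller changes may be missed. In simulated counts 44% of 1.3-fold changes were recovered, but with only 200 genes changed, against 2927 called in the data.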
